A study of Mus musculus with 9 samples.

Results

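The scavenger receptor genes examined here are Msr1, Cd36, Olr1, Marco, Scarb1, Cd163, Stab1 and Colec12. They were chosen by name, and all 8 had a row among the 21212 rows of the gene expression table. The arrays compared M1-skewed microglia given 100 ng/ml of LPS, M2a-skewed microglia given 20 ng/ml of IL-4 and resting microglia given an equal volume of PBS, each for 4 h and each on 3 arrays. All 9 cultures came from brains of wild-type CD1 pups at P0-P1, with the litter pooled, and were grown for 5 to 7 days according to the labels with M-CSF and GM-CSF at 10 ng/ml each, then kept without serum overnight. Every condition, the resting one included, therefore carries both growth factors and the serum withdrawal. Nothing states that the 3 replicates of a condition are separate preparations, so the p-values speak only of the scatter among these arrays, and that scatter may be technical.

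Scavenger receptors are membrane proteins of unrelated folds that bind modified lipoproteins, bacterial surfaces, apoptotic cells and other polyanionic ligands and carry them into the cell. Macrophages and microglia use them to clear debris, lipid and amyloid. Marco, Msr1 and Colec12 encode collagen-like trimers of class A, Cd36 and Scarb1 the class B receptors for fatty acids and lipoproteins, Olr1 the lectin-like receptor LOX-1 for oxidized LDL, Stab1 the large endocytic receptor stabilin-1, and Cd163 the receptor for haptoglobin-hemoglobin complexes.

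The labelled cell type was checked against its markers. Itgam lay between 10.19 and 10.62, Csf1r between 10.77 and 11.90 and Ptprc between 10.26 and 11.26 on the log2 scale over the 9 arrays. The microglial genes had ranges of 7.35 to 8.68 (P2ry12), 6.19 to 7.32 (Tmem119) and 7.60 to 10.86 (Cx3cr1), and Aif1 one of 7.90 to 8.98. By their means, P2ry12 was brighter than 60.2% of rows, Tmem119 than 43.4%, Cx3cr1 than 77.2% and Aif1 than 66.0%. Array values do not order the RNA amounts of different genes. Markers of other cells were read too. The median of 11 astrocyte markers was between 10.13 and 10.82, and that of 10 fibroblast and meningeal markers between 7.92 and 8.83. Replicate 3 of LPS and replicate 3 of PBS stood apart from the other replicates. All 13 measured motile cilia genes were above both other replicates there, by medians of 1.64 (LPS) and 1.80 (PBS), and oligodendrocyte lineage markers were higher by medians of 0.81 and 0.43 and astrocyte markers by 0.56 and 0.62. Microglia markers were higher as well, by medians of 0.10 (LPS, 6 of 11 above and 3 below both other replicates) and 0.40 (PBS, 10 above and 1 below). Border macrophage markers were split, with medians of 0.09 (LPS, 4 of 7 above and 3 below both) and 0.41 (PBS, 4 above and 2 below). Fibroblast and meningeal markers had medians of −0.14 and −0.19 (6 and 8 of 10 below both). Of the 11 measured microglia markers 7 were called lower with LPS than with PBS, against 22.4% of all rows (limma adjusted p under 0.05). A single one, Ptprc, was called higher (0.72), against 15.4% of all rows. With IL-4 4 of 10 endothelial and 5 of 10 fibroblast and meningeal markers were called higher than with PBS, against 3.35% of all rows (median log2 fold change 0.26 and 0.45). Their part in the changes of the 8 genes was not tested. On the IL-4 arrays the replicate 3 medians were 0.05 (motile cilia), −0.01 (oligodendrocyte lineage) and 0.00 (astrocyte). In such bulk RNA, fewer cells of a type and less RNA per cell cannot be told apart.

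LPS raised 3 of the 8 genes (Olr1, Marco and Msr1), lowered 3 (Scarb1, Stab1 and Colec12) and left Cd36 and Cd163 without a call at an adjusted p under 0.05 (limma). Over all rows, 15.4% were called higher and 22.4% lower with LPS, 37.8% in all. With array medians subtracted this split of all rows turned round, to 5872 higher and 3323 lower, and that of the members was 3 higher and 2 lower. IL-4 raised Olr1 alone, against 3.35% of all rows higher, 2.05% lower and 5.4% in either direction. No member was called lower with IL-4 in this limma fit, although 3 members were lower and 2 higher at an unadjusted p under 0.05, and other settings called members lower (among them 1, Msr1, by the t-test named in the methods, by limma with a trend and with array medians subtracted, and 4 by limma with array weights). Set directly against IL-4, LPS gave higher values of Olr1, Marco and Msr1 and a lower value of Stab1 (4 of 8), while 21% of all rows were higher, 25.9% lower and 46.9% called. With array medians subtracted the members gave 4 higher and 0 lower (limma, 6 in either direction at an unadjusted p under 0.05), and all rows 9567 higher and 3697 lower. The values of 2 conditions did not overlap for 6 of 8 genes in each comparison. This held for 45.7% of all rows between LPS and PBS, 29% between IL-4 and PBS and 59.9% between LPS and IL-4. The IL-4 and the LPS comparison share the PBS arrays.

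**Figure D1:**
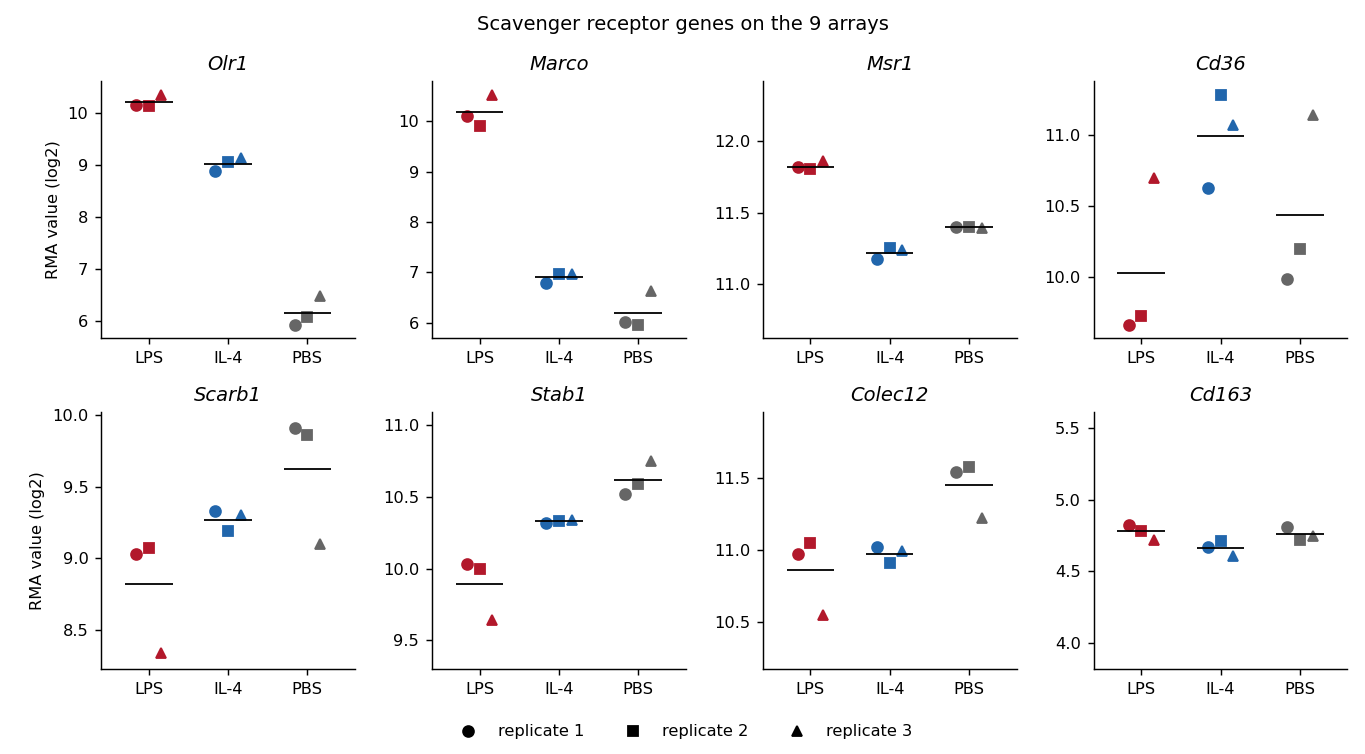
Deposited RMA values (log2) of the 8 scavenger receptor genes on each array, with LPS, IL-4 and PBS from left to right, marker shapes for the replicate number and a line at the mean of each condition. Each panel has its own scale, spanning at least 1.6 log2 units before the margin. Olr1 and Marco lie far higher on the LPS arrays than on the PBS arrays, and the replicate 3 arrays of LPS and PBS deviate the same way for Cd36 and for Scarb1.

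Olr1 had the largest changes of the 8 genes under either stimulus. Its values were 10.17, 10.14 and 10.36 on the LPS arrays, 8.89, 9.06 and 9.14 on the IL-4 arrays and 5.93, 6.07 and 6.49 on the PBS arrays. The conditions formed separate steps, with all LPS arrays above all IL-4 arrays and all IL-4 arrays at least 2.40 above all PBS arrays. The log2 fold change was 4.06 ± 0.14 (SE) for LPS against PBS, or 16.7-fold (limma adjusted p = 1.45e-07), and 2.87 ± 0.14 for IL-4 against PBS, or 7.29-fold (limma adjusted p = 3.30e-05). By the size of the rise Olr1 stood at place 47 of 21212 rows with LPS and at place 6 with IL-4. Olr1 was 1.19 ± 0.14 higher with LPS than with IL-4 (2.29-fold, limma adjusted p = 1.89e-04). All of its 3 calls were kept in each alternative setting run. The PBS mean of 6.16 was under 6.2, the limit of the dimmest 33.3% of rows. The table holds no detection calls, so that how far this level stood above background is not known here and the folds are those of the deposited values.

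Marco encodes a receptor of macrophages for bacteria and particles. It was at 10.11, 9.90 and 10.53 with LPS, at 6.78, 6.97 and 6.97 with IL-4 and at 6.02, 5.96 and 6.62 with PBS. The LPS arrays stood alone at the top, and the lowest IL-4 array was only 0.16 above the highest PBS array. LPS raised Marco by 3.98 ± 0.20 on the log2 scale (15.7-fold, limma adjusted p = 1.35e-06), from a PBS mean of 6.20 that was also at the limit of the dimmest rows. Arrays of the same replicate number were 4.08, 3.94 and 3.91 apart. The difference with IL-4 was 0.71 ± 0.20 (1.63-fold) and did not pass (limma adjusted p = 0.0901). It passed without PBS replicate 3 (0.91, adjusted p = 0.0160), the highest PBS array, and without LPS replicate 3 (0.71, adjusted p = 0.0481). Marco was 3.27 ± 0.20 higher with LPS than with IL-4 (9.66-fold, limma adjusted p = 4.34e-06).

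Promoter windows are shown for Olr1 and Marco, the genes with the large LPS rises. RefSeq promoter sequences (GRCm38.p6, 250 bases before to 50 after the start) were matched for 5 of the 8 genes. Olr1 lies at chr6:129507116-129507415 (minus strand) and Marco at chr1:120504975-120505274 (minus strand). Capitals mark matches on either strand to 4 motifs, NF-κB (GGGNNNNNCC), AP-1 (TGANTCA), STAT6 (TTCNNNNGAA) and the interferon response element (TTTCNNTTTC), each sequence being written in the direction of the gene.
Olr1: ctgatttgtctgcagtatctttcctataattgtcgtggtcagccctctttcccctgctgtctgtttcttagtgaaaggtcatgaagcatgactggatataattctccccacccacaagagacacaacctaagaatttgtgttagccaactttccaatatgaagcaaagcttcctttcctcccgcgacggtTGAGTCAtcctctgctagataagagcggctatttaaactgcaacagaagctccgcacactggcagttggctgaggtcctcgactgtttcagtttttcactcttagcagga
Marco: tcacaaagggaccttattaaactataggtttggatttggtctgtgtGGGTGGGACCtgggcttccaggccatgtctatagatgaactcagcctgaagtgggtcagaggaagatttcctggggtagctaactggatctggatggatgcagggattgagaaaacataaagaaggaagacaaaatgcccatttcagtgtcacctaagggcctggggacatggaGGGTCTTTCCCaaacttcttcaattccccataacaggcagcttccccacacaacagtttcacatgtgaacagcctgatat
The Olr1 window held 1 match, to AP-1, beginning 60 bases before the start. The Marco window held 3 matches to NF-κB, beginning 204, 30 and 29 bases before the start, of which the last pair overlap on opposite strands. Among 32851 promoter windows of this length, 50.8% held the NF-κB motif, 7.81% AP-1, 6.95% STAT6 and 3.44% the interferon element, so that a match to the NF-κB letters is common. Neither window held the STAT6 letters, which says nothing about binding elsewhere. Of the other windows, Cd36 held 1 match each to NF-κB and STAT6, Cd163 held 2 to NF-κB and Stab1 had no match.

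Msr1 encodes the macrophage scavenger receptor SR-A1, the receptor for acetylated LDL, and belongs to the same class as Marco. It was at 11.82, 11.80 and 11.86 with LPS, at 11.18, 11.25 and 11.24 with IL-4 and at 11.40, 11.40 and 11.39 with PBS. The replicates lay so close together (SD 0.030, 0.040 and 0.004) that small differences kept the conditions apart. LPS raised Msr1 by 0.42 ± 0.04 (1.34-fold, limma adjusted p = 1.07e-04). With IL-4 the difference was −0.18 ± 0.04 (0.884-fold), just short of the threshold (limma adjusted p = 0.0595), and each IL-4 array was below each PBS array. It passed in 7 of the 19 alternative settings, among them without LPS replicate 3 (−0.18, adjusted p = 0.0453). The LPS and IL-4 arrays differed by 0.60 ± 0.04 (1.52-fold, limma adjusted p = 1.29e-05). Unlike Olr1 and Marco, Msr1 had replicate 3 within 0.05 of the mean of the other replicates in every condition.

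Colec12, a class A receptor with a C-type lectin domain, fell with LPS. Its values were 10.97, 11.05 and 10.55 with LPS, 11.02, 10.91 and 10.99 with IL-4 and 11.54, 11.58 and 11.22 with PBS. All stimulated arrays were below all PBS arrays, and the LPS and IL-4 arrays overlapped. Colec12 fell by 0.59 ± 0.14 with LPS (0.663-fold, limma adjusted p = 0.00978) and differed by −0.48 ± 0.14 with IL-4 (0.719-fold, limma adjusted p = 0.0991). The IL-4 difference passed without PBS replicate 3 (−0.59, adjusted p = 0.0372) or LPS replicate 3 (−0.48, adjusted p = 0.0256), and the LPS call was lost with the methods' t-test (adjusted p = 0.108). Between LPS and IL-4 the difference was −0.12 ± 0.14 (limma adjusted p = 0.501).

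Stab1 encodes stabilin-1, which takes up acetylated LDL and the matrix protein SPARC. Its values were 10.03, 10.00 and 9.64 with LPS, 10.32, 10.33 and 10.34 with IL-4 and 10.52, 10.59 and 10.75 with PBS. As for Olr1 the conditions formed 3 separate steps, but in the opposite order. Stab1 fell by 0.73 ± 0.11 with LPS (0.603-fold, limma adjusted p = 7.29e-04), and replicate 3 had the greatest difference, −1.11 against −0.49 and −0.59 for replicates 1 and 2. With IL-4 it differed by −0.29 ± 0.11 (0.819-fold, limma adjusted p = 0.175, and adjusted p = 0.0337 without LPS replicate 3). LPS arrays were 0.44 ± 0.11 lower than IL-4 arrays (limma adjusted p = 0.00965), a call that was lost with each array's median subtracted (−0.29, adjusted p = 0.0518) and with the methods' t-test (adjusted p = 0.0636).

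Scarb1 and Cd36, the class B receptors, were the genes whose values depended most on replicate 3. Scarb1 encodes SR-BI, the receptor for HDL. It was at 9.03, 9.07 and 8.34 with LPS, at 9.33, 9.19 and 9.30 with IL-4 and at 9.91, 9.86 and 9.10 with PBS. Every LPS array lay below every PBS array by a margin of only 0.03, and PBS replicate 3 was 0.78 below and LPS replicate 3 0.71 below the mean of the other replicates. Compared within replicate numbers, the LPS difference was −0.88, −0.79 and −0.76. Scarb1 fell by 0.81 ± 0.25 with LPS (0.571-fold, limma adjusted p = 0.0314). The call was lost in 8 of the 20 alternative settings. Among them were the methods' t-test (adjusted p = 0.192), limma on the 6 arrays alone (adjusted p = 0.0838) and limma with array medians subtracted (−0.70, adjusted p = 0.0576). The adjusted p was 0.0738 when LPS replicate 3 was left out (−0.57), 0.101 and 0.103 when PBS replicate 1 (−0.67) or 2 (−0.69) was, and 0.0507 and 0.0512 when IL-4 replicate 1 or 3 was. It stayed without replicate 3 of both LPS and PBS (−0.83, adjusted p = 2.65e-05) and with LPS and PBS arrays paired by number (adjusted p = 2.36e-04). With IL-4 the difference was −0.35 ± 0.25 (limma adjusted p = 0.457), and on leaving out 1 array it lay between −0.61 (PBS replicate 3) and −0.21 (PBS replicate 1), with −0.23 without PBS replicate 2. Without replicate 3 of both LPS and PBS it was −0.61 (adjusted p = 3.07e-04). The LPS and IL-4 arrays differed by −0.46 ± 0.25 (limma adjusted p = 0.158), by −0.22 without LPS replicate 3 (adjusted p = 0.423), and by −0.22 without replicate 3 of both LPS and PBS, where it passed (adjusted p = 0.0103).

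Cd36 encodes the fatty acid translocase, which also binds oxidized LDL and fibrillar amyloid. It was at 9.67, 9.73 and 10.70 with LPS, at 10.63, 11.28 and 11.07 with IL-4 and at 9.99, 10.20 and 11.14 with PBS. Replicate 3 was 1.0 above the other replicates with LPS and 1.05 above them with PBS, and all 3 conditions overlapped. Within replicate numbers the LPS difference was −0.32, −0.47 and −0.44, but the fitted change of −0.41 ± 0.36 did not pass (limma adjusted p = 0.421). It was −0.06 without PBS replicate 3 and −0.74 without LPS replicate 3. With the LPS and PBS arrays alone, paired by replicate number, it passed (−0.41 ± 0.05, limma adjusted p = 0.00252), in a fit chosen after seeing the data in which 47.5% of all rows were called. IL-4 gave 0.55 ± 0.36 (limma adjusted p = 0.431), or 0.32 without PBS replicate 1 (adjusted p = 0.799) and 0.90 without PBS replicate 3 (adjusted p = 0.115), and the LPS arrays were 0.96 ± 0.36 below the IL-4 arrays (limma adjusted p = 0.0585). The difference between LPS and IL-4 passed without LPS replicate 3 (−1.29, adjusted p = 0.0145) or PBS replicate 3 (−0.96, adjusted p = 0.0253). Without replicate 3 of both LPS and PBS, Cd36 was 0.90 ± 0.18 higher with IL-4 than with PBS (adjusted p = 0.00863) and differed by −1.29 ± 0.18 between LPS and IL-4 (adjusted p = 5.59e-04). The part that the other cell types marked by the lists above have in these deviations was not tested.

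**Figure D2:**
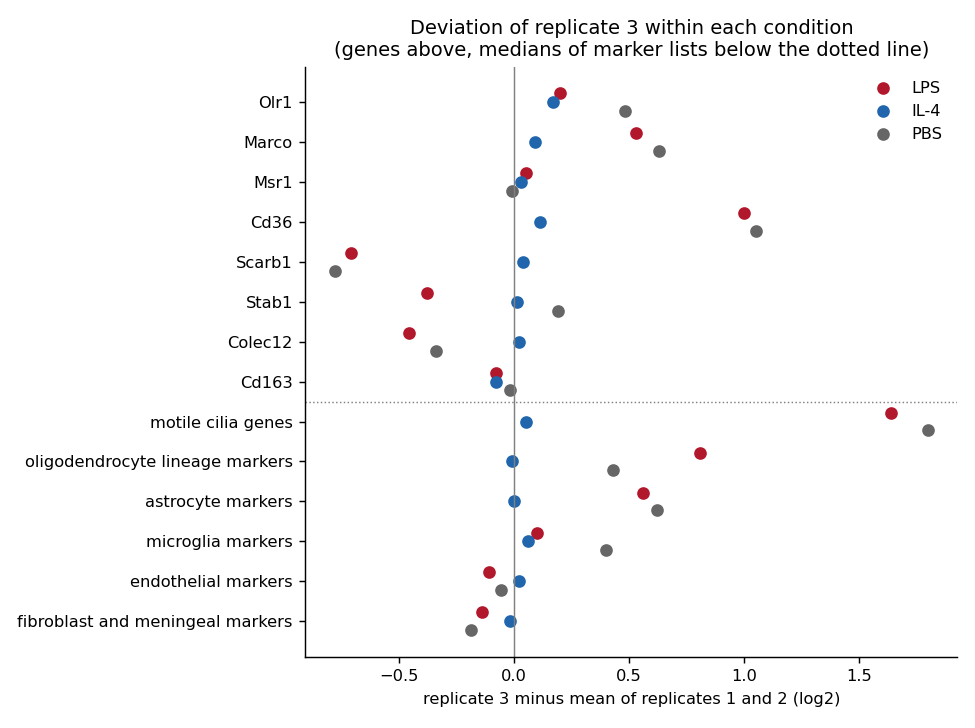
Replicate 3 minus the mean of replicates 1 and 2 (log2) in the LPS, IL-4 and PBS arrays, for each of the 8 genes and, under the dotted line, as the median over marker lists of cell types. Cd36 was higher in replicate 3 of LPS (1.0) and of PBS (1.05), Scarb1 was lower in both (−0.71 and −0.78), and in the IL-4 arrays the 8 genes deviated by at most 0.17.

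Cd163 had no change that passed. It was at 4.82, 4.78 and 4.72 with LPS, at 4.67, 4.71 and 4.61 with IL-4 and at 4.81, 4.72 and 4.75 with PBS. The 9 arrays thus lay within a narrow band, and 85.9% of all rows had a higher mean, which puts Cd163 among the 7071 dimmest rows. The log2 fold changes were 0.02 ± 0.05 for LPS against PBS (limma adjusted p = 0.837), −0.10 ± 0.05 for IL-4 against PBS (limma adjusted p = 0.324), and 0.11 ± 0.05 for LPS against IL-4 (limma adjusted p = 0.0988). The last passed in 3 of the 18 alternative settings, among them with array medians subtracted (0.27, limma adjusted p = 0.0059). Other genes that, like Cd163, mark macrophages at the borders of the brain had mixed values. With LPS 0 of 7 such genes passed (limma, 1 at an unadjusted p under 0.05), against 37.8% of all rows. With IL-4 1 did, Pf4, against 5.4% of all rows. In replicate 3 of LPS 4 of the 7 were above and 3 below both other replicates. In that of PBS 4 were above and 2 below, and this spread limits what the calls can show. Lyve1 was at 5.41 to 5.57 on all arrays and Pf4 was at 9.00, 9.31 and 9.33 with IL-4 against 8.11, 8.37 and 8.65 with PBS.

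**Figure D3:**
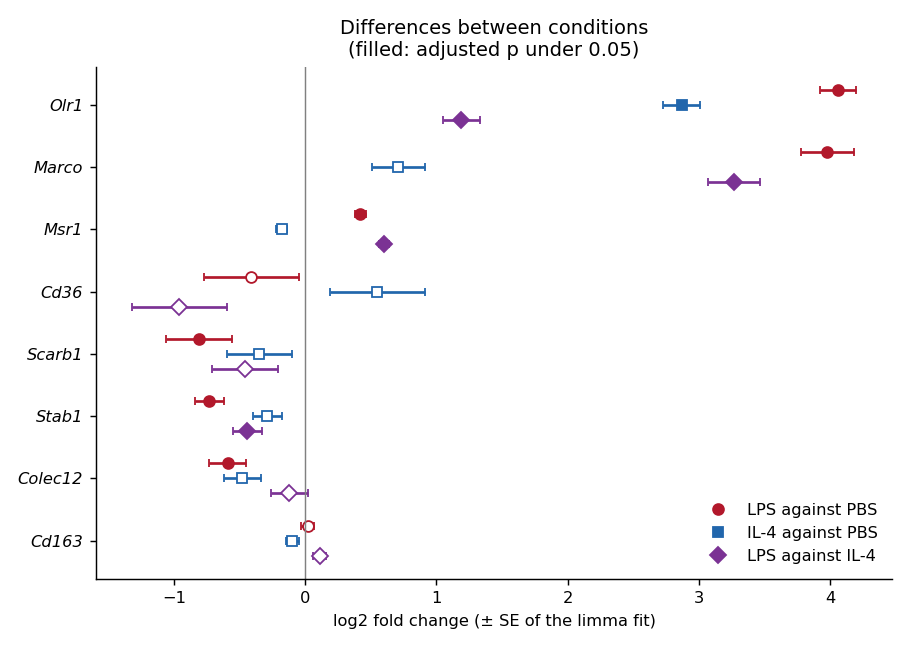
Log2 fold change with its SE (limma, 3 arrays a condition) of the 8 genes for LPS against PBS (circles), IL-4 against PBS (squares) and LPS against IL-4 (diamonds), filled where the adjusted p was under 0.05. Olr1 alone is filled in all 3 comparisons, at 4.06, 2.87 and 1.19, and Marco is filled against PBS with LPS (3.98) and not with IL-4 (0.71).

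The genes with the most similar pattern were found by the root mean square difference between log2 values over the 9 arrays, each gene centred on its own mean. For Olr1 these were Tnip3 (0.278), Gpr84 (0.319) and, at a distance, Ch25h (0.720), with rises of 3.45, 3.33 and 3.91 under LPS and of 2.53, 2.51 and 1.28 under IL-4. Tnip3 encodes a partner of the ubiquitin editor A20, Gpr84 a receptor for medium-chain fatty acids and Ch25h a cholesterol hydroxylase. For Marco they were Il33 (0.151), Upp1 (0.204) and the prostaglandin E synthase gene Ptges (0.241), which rose by 3.92, 4.02 and 4.30 with LPS. The nearest to Cd36 were the axonemal dynein light chain gene Dnal1 (0.127), Drp2 (0.140) and Tmem216 (0.140), which encodes a protein of the ciliary transition zone. The nearest to Stab1 were the lysosomal enzyme gene Idua (0.043), the γ-secretase gene Aph1b (0.081) and Lipa (0.083), the lysosomal acid lipase gene. For Scarb1 they were Prps2 (0.044), the nucleoside transporter gene Slc29a1 (0.055) and Cdca3 (0.071), for Colec12 Gstm4 (0.053), Tmem35b (0.067) and the fucosidase gene Fuca1 (0.067), for Msr1 Jade2 (0.044), Kcnv1 (0.046) and Crkl (0.048), and for Cd163 Corin (0.022), Serpina1f (0.022) and Ess2 (0.025).

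The wider receptor family was read from a list of 21 further genes, 20 of them with a named row. With LPS 4 rose, 4 fell and 12 did not pass (40.0% called, against 37.8% of all rows, and a median log2 fold change 0.01, as over all rows), and with array medians subtracted 7 rose and 2 fell. That scaling gave 5872 higher and 3323 lower over all rows. Between LPS and IL-4, 6 were higher and 5 lower with LPS, against 21% and 25.9% of all rows. With array medians subtracted 11 were higher and 4 lower, against 9567 higher and 3697 lower of all 21212 rows. Cd44, the hyaluronan receptor gene, was at 10.65, 10.70 and 10.40 with LPS against 9.27, 9.24 and 9.01 with PBS, a rise of 1.41 ± 0.09 (limma adjusted p = 7.26e-06). Cxcl16, a membrane-bound chemokine that takes up oxidized LDL, rose by 1.10 ± 0.11 and Scarf1, an endothelial receptor for acetylated LDL, by 0.47 ± 0.10. Megf10, an engulfment receptor of astrocytes, fell by 0.65 ± 0.06, Lrp1 by 0.50 ± 0.08 and Lrp2 by 0.42 ± 0.12 (limma adjusted p at most 0.0272 for these 5 genes).

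With IL-4 the same family gave 2 rises, 1 fall and 17 genes without a call (15.0% called, against 5.4% of all rows, and a median of −0.05, against −0.02 over all rows). Clec7a, which encodes the β-glucan receptor dectin-1, was at 11.87, 12.08 and 12.10 with IL-4 against 11.31, 11.43 and 11.43 with PBS, a rise of 0.63 ± 0.08 (limma adjusted p = 0.00286). Cd44 rose by 0.50 ± 0.09 (adjusted p = 0.0198), so that Cd44, like Olr1, was called higher with either stimulus. Scarb2, the lysosomal class B member LIMP-2, fell by 0.34 ± 0.07 with IL-4 and by 0.25 ± 0.07 with LPS (limma adjusted p = 0.0303 and 0.0222). The mannose receptor gene Mrc1 did not pass in either comparison (log2 fold change −0.72 ± 0.43 with LPS and 0.75 ± 0.43 with IL-4), with replicate 3 low at 8.77 (LPS) and 9.89 (PBS) beside 10.29 and 10.40 (LPS) and 10.82 and 10.90 (PBS).

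Of 13 measured genes for handling the lipid that scavenger receptors bring in, 9 fell with LPS (69.2%), against 22.4% of all rows, and 4 did not pass (Vldlr, Npc2, Apoe and Abca1, with 0.01, 0.01, −0.18 and −0.26). The median was −0.61, against 0.01 over all rows. The falls were led by Nceh1 (−1.26 ± 0.16), which hydrolyzes cholesteryl esters, the fatty acid carrier gene Fabp5 (−1.10 ± 0.34) and the cholesterol exporter gene Abcg1 (−1.07 ± 0.27), with limma adjusted p at most 0.0325. Replicate 3 was lowest in both conditions for Nceh1, Fabp5 and Abcg1. Fabp5 was at 7.75, 7.87 and 7.00 with LPS against 9.08, 9.01 and 7.84 with PBS, so that its conditions overlapped. With IL-4, 2 of the 13 fell, against 2.05% of all rows (median −0.17, against −0.02). Fabp4 was at 9.21, 9.25 and 9.31 with IL-4 against 10.79, 10.83 and 10.15 with PBS, so that it fell by 1.33 ± 0.18, and Plin2, a lipid droplet coat gene, fell by 0.82 ± 0.09 (limma adjusted p = 0.00505 and 0.00139).

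Among 11 measured transcription factor genes known to act on scavenger receptor genes, 5 rose and 2 fell with LPS, against 15.4% and 22.4% of all rows (median 0.26, against 0.01). Cebpb rose by 1.47 ± 0.17, the glucocorticoid receptor gene Nr3c1 by 1.0 ± 0.08 and Maf by 0.42 ± 0.07, while Rxra, the partner of PPARγ, fell by 1.93 ± 0.12 (limma adjusted p at most 0.00183). Pparg itself was at 7.66, 7.61 and 6.75 with LPS against 9.47, 9.47 and 7.86 with PBS, so that it fell by 1.59 ± 0.43 (limma adjusted p = 0.0183), with replicate 3 lowest in both conditions. With IL-4 Maf alone was called (9.09% of the 11, against 5.4% of all rows), lower by 0.48 ± 0.07 (limma adjusted p = 0.00806). Maf was thus called in opposite directions against PBS.

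Of 16 measured partners and effectors of the receptors, 7 rose, 4 fell and 5 did not pass with LPS (68.8% called, against 37.8% of all rows, and a median of 0.13, against 0.01). Tlr2, a partner of Cd36, was at 11.52, 11.65 and 11.50 with LPS against 9.92, 9.96 and 9.31 with PBS, a rise of 1.83 ± 0.16, and Syk and Mertk rose by 0.82 ± 0.16 and 0.82 ± 0.11 (limma adjusted p at most 0.00328). Gulp1, which encodes an engulfment adaptor, fell by 0.78 ± 0.05, the sheddase gene Adam10 by 0.50 ± 0.09 and the integrin gene Itgb2 by 0.41 ± 0.13 (limma adjusted p at most 0.0424). With IL-4 only Gulp1 passed (6.25% of the 16, against 5.4% of all rows), higher by 0.34 ± 0.05 (limma adjusted p = 0.0048).

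**Figure D4:**
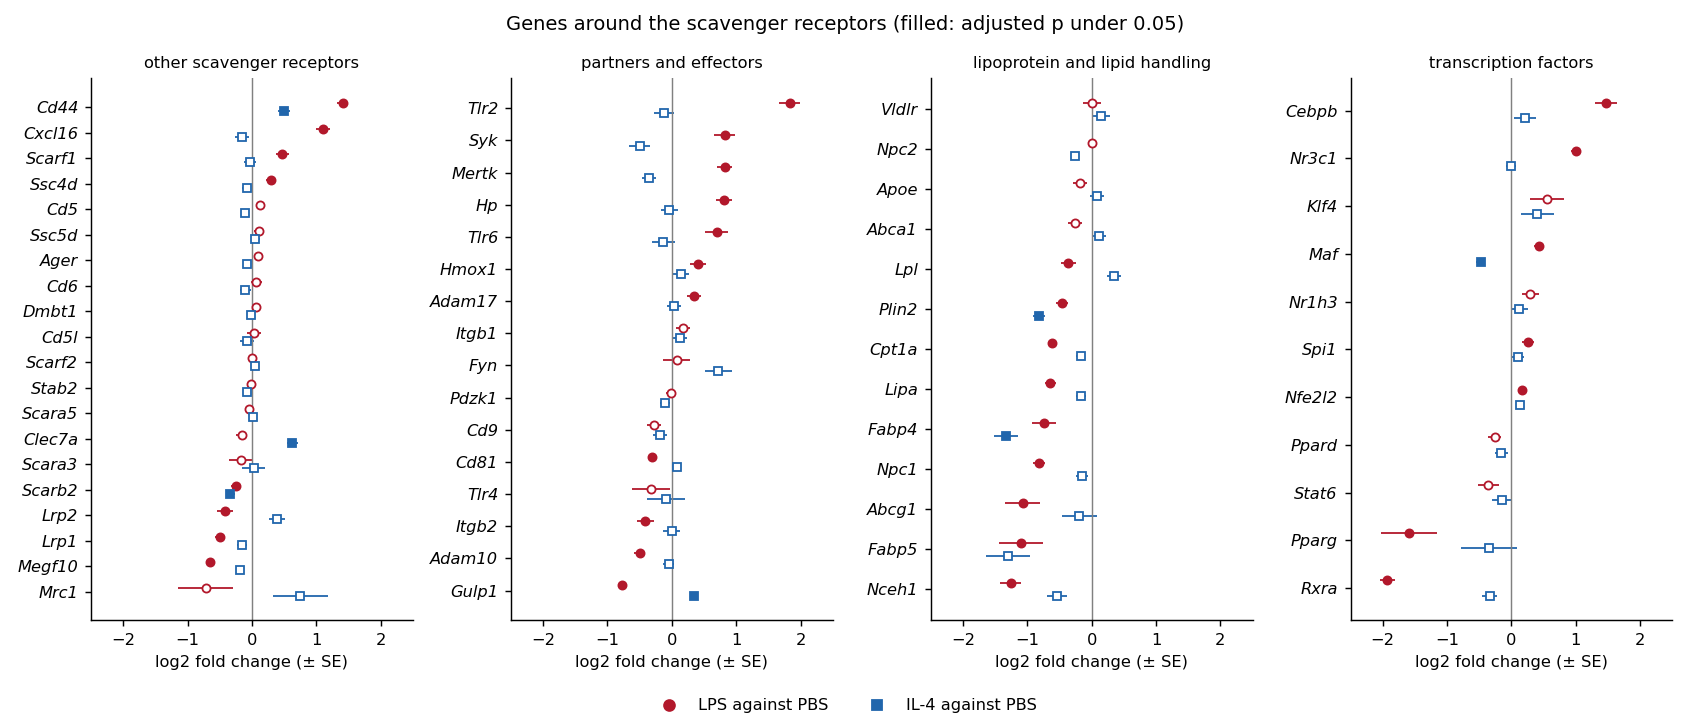
Log2 fold change with its SE (limma) for LPS against PBS (circles) and IL-4 against PBS (squares) of the genes in 4 lists around the scavenger receptors, filled where the adjusted p was under 0.05. With LPS, 9 of the 13 lipid handling genes are filled below 0, and in the wider receptor family Cd44 (1.41) and Cxcl16 (1.10) lie highest.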

How the data were processed

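Total RNA of the 9 cultures was measured on the Affymetrix Mouse Exon 1.0 ST Array. The deposited table holds expression on the log2 scale, which the authors made with RMA and the affy package, which correct the background, equalize the arrays by quantiles and summarize the probes of each gene. Versions and the probe set definition are not given in the sources used here. The table holds 21212 rows, of which 18786 have 1 gene symbol through the platform annotation, 6 several and 2420 none. Values run between 2.05 and 13.06 with none missing. Arrays give no counts or depth, and their number limits the precision.

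Conditions came from the sample labels. The pairs LPS and PBS, IL-4 and PBS, and LPS and IL-4 were tested in a linear model with a mean per condition over all 9 arrays and no block (limma 3.58.1 with eBayes, R 4.3.3, residual df 6, prior df 2.38), with Benjamini-Hochberg adjustment over all rows and a threshold of 0.05. SE values come from the moderated variance. The members and the gene lists were chosen with earlier results of these data known. Named genes are the 8 members, up to 3 genes with the largest rise and up to 3 with the largest fall past the threshold from each related list, and the 3 genes with the pattern most like each member. Mrc1, Lyve1, Pf4, Vldlr, Npc2, Apoe and Abca1, and Scarb2 with LPS, fall outside that rule and were named after their values had been seen. Listed genes without a named row are not analysed here.

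Whether replicate numbers pair the arrays was checked by correlating deviations from the condition means. Arrays of the same number correlated between LPS and PBS (0.578, 0.651 and 0.800). LPS replicate 1 with PBS replicate 2 (0.542) and LPS replicate 2 with PBS replicate 1 (0.605) did so as well. The correlations thus set replicate 3 apart in both conditions and do not show that numbers 1 and 2 pair. Same-number values were mixed for IL-4 and PBS (0.339, −0.255 and 0.075) and for LPS and IL-4 (0.289, −0.228 and 0.059). With that limit, differences within replicate numbers are given for LPS and PBS only, and the main fit does not pair the arrays. The 19 alternatives were the t-test of the methods, the 6 arrays of a comparison alone, robust eBayes or one with a trend, weights for arrays, quantile normalization, subtraction of array medians, dropping the dimmest 33.3% of rows, a block for the replicate number, each array left out in turn, and leaving out replicate 3 of LPS and PBS together. A block in a fit of the LPS and PBS arrays alone was chosen after seeing the data. The procedure was tested on simulated data in which each array had independent noise. That noise held no shared deviation of replicate 3, so the simulation cannot show how the fit behaves with it. Python 3.11.15, numpy 2.4.6, pandas 2.3.3 and matplotlib 3.10.9 were used for tables and figures, and promoter windows came from RefSeq.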

Additional observations from a re-analysis of the deposited data

How the results depend on the processing

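Olr1, Marco and Msr1 kept their calls for LPS against PBS and for LPS against IL-4 in every alternative run, as did Olr1 for IL-4 against PBS and Stab1 for LPS against PBS. The count of members called for LPS against PBS was 6, between 4 (the methods' t-test, with 25% of all rows called) and 7, and 5 to 6 on leaving out 1 array. Without the dimmest rows it was 6 of the 7 members kept, with 53.8% of the rows kept called. A replicate block fitted to the 9 arrays together changed no member's call in that comparison (6 called, and 42.4% of all rows). In the LPS and PBS arrays alone the block gave 7, adding Cd36, while 47.5% of all rows were called. The block on the 9 arrays gave 3 members for IL-4 against PBS, adding Marco and Colec12, with 6.49% of all rows called. For LPS against IL-4 it gave 5, adding Cd36, with 53.1% of all rows called. However, the IL-4 arrays share only a number with the others.

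The count for IL-4 against PBS, 1 as reported, was 7 with array weights, which were lowest for replicate 3 of LPS (0.195) and PBS (0.20), and 7 without replicate 3 of both LPS and PBS (3 higher and 4 lower in each), while 39.1% and 30.1% of all rows were called against 5.4%. It was 1 to 5 on leaving out 1 array, with 5 without LPS replicate 3 (8.18% of all rows called) and 3 without PBS replicate 3 (9.58%). It was 2 with the methods' t-test, with a trend in eBayes, with array medians subtracted and without the dimmest rows. The shares of rows called there were 3.38%, 5.38%, 4.3% and 9.51%. For LPS against IL-4 the count was 4, and 7 without replicate 3 of both LPS and PBS, with 62.1% of all rows called against 46.9% (4 to 5 on leaving out 1 array). In that comparison it was 3 with the methods' t-test (35.5% of all rows called) and 6 with array weights (62.8%). With array medians subtracted the split there was 4 higher and 0 lower (limma, 6 in either direction at an unadjusted p under 0.05), against 3 and 1 as reported. With this scaling all rows had a median log2 fold change of 0.118 against 0.0051 (LPS against PBS) and of 0.183 against 0.0294 (LPS against IL-4).

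In the wider family, 8 genes were called for LPS against PBS, with 37.8% of all rows (6 to 8 on leaving out 1 array). The count was 5 with the methods' t-test (25% of all rows), 10 with array weights (50.1%) and 11 with quantile normalization (38.3%). For IL-4 against PBS 3 were called. None passed with the methods' t-test (0, and 5 at an unadjusted p under 0.05), where 3.38% of all rows did. With array weights 8 passed (39.1% of all rows), as did 8 without replicate 3 of both LPS and PBS (30.1%). On leaving out 1 array the count was 1 to 3, and it was 1 without IL-4 replicate 1, 2 or 3 or PBS replicate 2.

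Signs turned only for differences that did not pass. Cd163 for LPS against PBS became −0.0706 after quantile normalization. On leaving out 1 array it lay between −0.0063 (without LPS replicate 1) and 0.042, and it was −0.0018 without PBS replicate 2. For LPS against IL-4, Cd163 became −0.0224 after quantile normalization. Colec12 for LPS against IL-4 became 0.0142 with array weights, 0.035 with medians subtracted and −0.2145 to 0.0355 on leaving out 1 array (0.0355 without LPS replicate 3), and 0.0355 without replicate 3 of both LPS and PBS. The cause was not tested.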
